A study of Mus musculus with 42 samples.

Results

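Transcript levels of 10 genes of the hepatic oxidative stress and metal response were described in mouse liver, chosen by name as the rows for Nfe2l2, Keap1, Nqo1, Gclc, Gclm, Srxn1, Txnrd1, Hmox1, Mt1 and Mt2. They are 10 of the 19754 gene names that the deposited tables hold, and all 10 were listed in each of the 6 tables. Nfe2l2 encodes Nrf2, a transcription factor that the adaptor protein Keap1 keeps low by directing it to degradation, and that accumulates when Keap1 cysteines are modified by electrophiles or oxidants. Nrf2 then pairs with small Maf proteins on antioxidant response elements and raises genes of quinone reduction (Nqo1), glutathione synthesis (Gclc and Gclm), sulfiredoxin and thioredoxin recycling (Srxn1 and Txnrd1) and haem breakdown (Hmox1). Mt1 and Mt2 encode metallothioneins, small cysteine-rich proteins that bind zinc and copper, and in liver they are known to respond to metals through the factor Mtf1, to glucocorticoids and to inflammation, besides oxidants.

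RNA was sequenced from whole livers of 42 male C57BL/6J mice in 6 groups of 7. The genotypes were wild type (WT) and knockout (KO) for ChemR23, the receptor for resolvin E1 (RvE1) and for chemerin that the gene Cmklr1 encodes. The KO was made by CRISPR/Cas9 editing, and the WT mice were littermates. The diets began at the same age in every group and differed in lard. WT lean and KO lean mice received a diet with 10% of kcal from fat and an ethanol vehicle. WT obese and KO obese mice received a diet with 60% of kcal from fat and the same vehicle, and WT obese+RvE1 and KO obese+RvE1 mice received the high fat diet and 300 ng RvE1 by intraperitoneal injection on consecutive days before harvest. RvE1 is a lipid mediator derived from eicosapentaenoic acid that is known for its part in the resolution of inflammation. No lean group received RvE1, so that its action was measured on the high fat diet only.

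The 4 promoter windows below include those of the metallothionein pair, which varied together between mice, and of Nqo1, the member called in both diet comparisons. Srxn1, called in no comparison, was included for the Maf-type element that its window holds. Each window is the 250 bases before the RefSeq transcription start, 5′ to 3′ on the strand of the gene (GRCm38.p6). Capitals mark every match, on either strand, to the antioxidant response element core TGACNNNGC, the Maf-type element TGANTCAGC or the metal response element core TGCNCNC.
Mt2: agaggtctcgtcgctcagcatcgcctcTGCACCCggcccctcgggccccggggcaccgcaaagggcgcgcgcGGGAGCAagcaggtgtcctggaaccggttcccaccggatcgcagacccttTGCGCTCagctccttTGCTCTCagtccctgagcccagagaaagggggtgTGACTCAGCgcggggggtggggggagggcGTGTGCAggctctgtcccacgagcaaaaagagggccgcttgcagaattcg
Mt1: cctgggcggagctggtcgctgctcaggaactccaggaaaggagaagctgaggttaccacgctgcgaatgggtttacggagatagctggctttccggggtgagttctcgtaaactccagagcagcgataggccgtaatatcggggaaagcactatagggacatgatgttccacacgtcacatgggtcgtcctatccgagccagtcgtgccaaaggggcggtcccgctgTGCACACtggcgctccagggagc
Nqo1: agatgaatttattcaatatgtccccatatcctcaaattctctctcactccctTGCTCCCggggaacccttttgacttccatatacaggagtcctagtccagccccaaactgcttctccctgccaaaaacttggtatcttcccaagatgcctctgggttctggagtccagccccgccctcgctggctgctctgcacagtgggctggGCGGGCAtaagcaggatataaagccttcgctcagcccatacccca
Srxn1: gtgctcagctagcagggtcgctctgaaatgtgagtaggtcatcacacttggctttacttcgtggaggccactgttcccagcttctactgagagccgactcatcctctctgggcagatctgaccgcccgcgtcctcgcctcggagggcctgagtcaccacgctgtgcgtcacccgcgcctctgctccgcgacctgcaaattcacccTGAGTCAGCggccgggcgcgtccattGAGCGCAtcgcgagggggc
The windows lie at chr8:94172368-94172617 (plus strand) for Mt2, chr8:94178839-94179088 (plus strand) for Mt1, chr8:107403206-107403455 (minus strand) for Nqo1 and chr2:152105274-152105523 (plus strand) for Srxn1.

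The Mt2 window held 5 metal response element cores and a single TGACTCAGC, 79 to 71 bases before the start, which matches both the antioxidant and the Maf-type element. The Mt1 window held 1 metal response element core and no antioxidant core, a count for the 250 bases before this RefSeq start only. Bases after that start were not searched. In the Srxn1 window, TGAGTCAGC lay 45 to 37 bases before the start. The Nqo1 window had no match to TGACNNNGC or TGANTCAGC, which says only that these letters are not within 250 bases of this start. Among the other members with a window, the antioxidant core was found for Nfe2l2, Gclm and the second of the 3 Txnrd1 starts, and not for Keap1. Over all 32851 RefSeq windows of the same length, 10.2% held TGACNNNGC, 1.02% held TGANTCAGC and 44.4% held TGCNCNC, so that the short metal core is common by its letters alone. Windows were found for 8 of the 10 members; Gclc and Hmox1 are named here only.

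All members are annotated in GENCODE M21 as protein-coding genes. Mt2 (chr8:94172664-94173568) and Mt1 (chr8:94179082-94180327) are neighbours on the plus strand, 5513 bp apart. Hmox1 (chr8:75093621-75100589) and Nqo1 (chr8:107388225-107403206, minus strand) lie on the same chromosome. Nfe2l2 (chr2:75675513-75704641, minus strand) and Srxn1 (chr2:152105516-152111376) are on chromosome 2, Gclc (chr9:77754535-77794485) and Keap1 (chr9:21229730-21239361, minus strand) on chromosome 9, Gclm at chr3:122245557-122270732 and Txnrd1 at chr10:82833951-82897712. Annotated transcripts on the opposite strand overlap Keap1 (Gm16754), Gclm (Gm17494), Txnrd1 (Gm38560 and Gm47073) and Mt2 (Gm45774). Others overlap on the same strand, Gm24996 in Nfe2l2, the pseudogene Gm6061 in Gclm and Eid3 in Txnrd1. The libraries were stranded, but whether the counting used strand is not given in the sources used here, so the counts of these members may include reads of the overlapping gene.

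As RPKM, reads scaled by annotated exon length and library total, the metallothioneins were the most abundant members. Over the 42 mice the median level was 220 RPKM for Mt2 and 146 RPKM for Mt1. The order of this pair depends on the lengths used, 588 bp for Mt2 and 1246 bp for Mt1, which is the whole annotated span of Mt1. In reads Mt1 was the higher, with a median of 4669.5 against 3424 for Mt2. Gclc, the catalytic subunit of glutamate-cysteine ligase, followed with 21.1 to 105 RPKM over mice, against 12.6 to 28.6 RPKM for its modifier subunit Gclm. Srxn1, Nfe2l2, Txnrd1, Keap1 and Hmox1 had medians of 22.6, 18.7, 15.9, 12.6 and 10.8 RPKM, in the order named. Nqo1 was the least abundant member, with a median of 3.00 RPKM and between 42 and 378 reads per library. The ranges over mice of the members from Srxn1 to Hmox1 overlapped, so that their order is not separated by the spread between mice, whereas the highest Nqo1 level (8.09 RPKM) lay below the lowest levels of Keap1 (8.17), Nfe2l2, Gclm and Txnrd1.

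**Figure D1:**
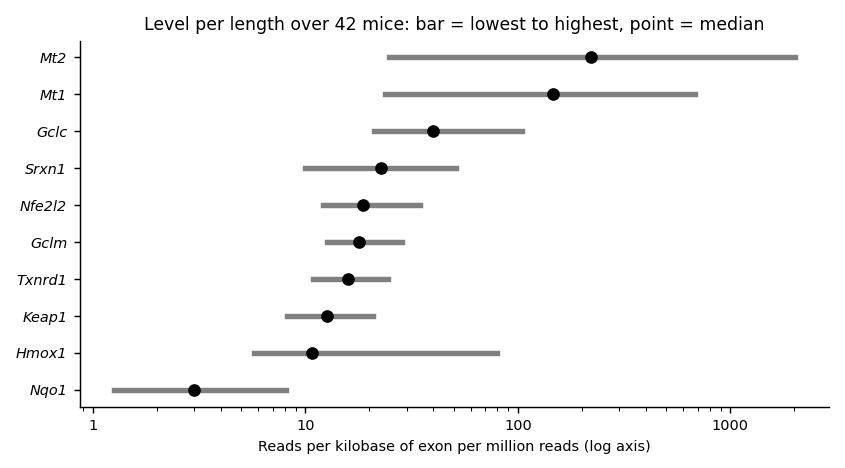
Level of each member over 42 mice in RPKM (reads scaled by exon length and library total), on a log axis, with a bar from the lowest to the highest mouse and a point at the median. The bars of Mt1 and Mt2 span 23.7 to 678 and 24.6 to 2020 RPKM and are the longest, and Nqo1 lies lowest with a median of 3.00 RPKM.

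The libraries held 15976714 to 43805397 reads on the listed genes (median 24277649), and the reads behind each member in each library ranged from 42 for Nqo1 to 22737 for Mt2. As a check of the genotype labels, Cmklr1 had 9.72 to 22.6 normalized counts in KO lean against 40.8 to 114 in WT lean mice, and 5.08 to 23.2 in KO obese against 33.3 to 102 in WT obese mice, with no overlap between genotypes in either table. All 7 hepatocyte markers were tested in every comparison and 0 were called by limma. Markers of Kupffer cells, the resident macrophages of liver, differed where KO lean mice were compared. In KO lean against WT lean 9 of 9 tested markers were called higher (median log2 fold change 0.98), against 514 of 13031 genes (median -0.00042). In KO obese against KO lean 7 of 9 were called lower (median -0.90), against 770 of 14213 genes (median -0.0021). The same KO lean mice enter both counts, which are not separate observations. Between WT obese and WT lean, and between the obese genotypes, 0 of 9 markers were called (medians 0.02 and 0.10). Their summed level was 10223 to 21485 in KO lean and 4455 to 9302 in WT lean, and 6251 to 8710 in KO obese against 11266 to 23695 in KO lean. Of the endothelial and stellate lists, 2 genes were called by limma in these comparisons, Clec4g and Des, both lower in KO obese than in KO lean mice, and of the adipocyte and pancreatic acinar lists, with at most 2 genes tested each, 0 were called. In whole liver, fewer cells of a type and less RNA per cell cannot be told apart, and the part of this shift in the members' values was not tested.

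In WT mice on the high fat diet Nqo1 was called higher, and the other 9 members did not pass the test. Nqo1, a quinone reductase, had 44.8 normalized counts in the lowest, 68.6 in the median and 87.2 in the highest WT lean mouse, and 85.0, 103 and 220 in WT obese mice. The obese mice were the higher group, and 6 of 7 lay above every lean mouse, so that the groups overlapped by a single animal. The mean rose from 65.4 ± 15.9 to 118 ± 46.2 (SD, 7 mice each), a difference of 0.81 ± 0.21 (SE) on the log2(count + 1) scale with a limma adjusted p of 0.0404. A gene was called where its adjusted p was below 0.1 and its fold exceeded 1.5, and 1 of 10 members was called against 3.8% of the 14012 genes tested. At the adjusted p alone it was also 1 of 10 members, against 6.27% of genes. WT obese replicate 7 was the highest of its group for Nqo1, Gclc, Gclm and Srxn1, and without it Nqo1 was still called (0.65, adjusted p = 0.0516). With reads scaled to equal totals the Nqo1 difference was 0.87 with an adjusted p of 0.112, and with a random block for the number that opens each mouse identifier it was 0.79 with an adjusted p of 0.134, and the call was lost under both.

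The remaining members of the WT diet comparison did not pass the test. Gclm was at 2222 ± 225 (SD, n = 7) in lean and 2590 ± 326 (SD, n = 7) in obese mice, 0.22 on the log2 scale with an adjusted p of 0.255 (unadjusted p under 0.05 by limma, edgeR and DESeq2). Gclc went from a median of 3499 to 3025, with 6 of the 7 obese mice between 2748 and 3183 and replicate 7 at 5104, and its log2 difference was -0.06 ± 0.16. Txnrd1, which recycles oxidized thioredoxin, had 2325 to 2775 normalized counts in lean and 2134 to 2761 in obese mice. Nfe2l2 and Keap1 themselves differed by 0.09 ± 0.12 and -0.07 ± 0.10, each less than its standard error. Mt1, Mt2 and Hmox1 had log2 differences of 0.04, 0.15 and 0.11 with standard errors of 0.67, 0.91 and 0.49, and their medians were lower in the obese group while their means were higher, as described for single mice further on.

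Among 30 other genes known as Nrf2 targets, a list that leaves out the members, 3 were called higher and 1 lower in WT obese mice, and the median log2 fold change was 0.12 against 0.00 over all genes. Aox1 (aldehyde oxidase) rose from a mean of 438 to 984 normalized counts (log2 difference 1.16, adjusted p = 0.0037), and Ephx1 (microsomal epoxide hydrolase) from 1895 to 3047 (0.69, adjusted p = 0.0053). Me1, malic enzyme, which supplies NADPH for fatty acid synthesis, fell from 2773 to 1727 (-0.66, adjusted p = 0.0230). Of 8 glutathione synthesis and recycling genes and 11 thioredoxin and peroxiredoxin genes tested, 0 were called by limma, and the same holds for 11 partners and regulators of Nrf2.

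In KO mice 2 of 10 members were called on the high fat diet, Nqo1 and Gclc, against 10.4% of the 14213 genes tested. At the adjusted p alone, 4 of 10 passed, Nqo1, Gclc, Gclm and Nfe2l2, against 24.1% of genes, all of them higher in KO obese mice. Nqo1 had a lowest, median and highest value of 52.9, 74.4 and 98.2 normalized counts in the lean group and 102, 171 and 205 in the obese group. All 7 obese mice lay above all 7 lean mice, and 2.1% of the genes tested had groups that did not overlap. The mean went from 75.9 ± 17.1 (SD, n = 7) to 163 ± 38.1 (SD, n = 7), a log2 difference of 1.09 ± 0.18 (SE) with a limma adjusted p of 0.0033. This call held without each mouse in turn (1.01 to 1.19) and in every alternative except a threshold of 1.5 on the log2 scale.

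Gclc, which carries the rate-limiting step of glutathione synthesis, had 1942, 2753 and 3315 normalized counts in the lowest, median and highest KO lean mouse and 2322, 4509 and 5893 in KO obese mice. Of the obese mice 5 lay above every lean mouse, while replicates 4 and 6 of KO obese, at 2322 and 2983, were within the lean range. Its log2 difference was 0.67 ± 0.19 (SE, adjusted p = 0.0315), and it was called in all 14 fits that left out a mouse (0.59 to 0.81). Under the random block it was 0.63 with an adjusted p of 0.114, and the call was lost.

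Gclm rose from 2503 ± 219 (SD, n = 7) to 3299 ± 486 (SD, n = 7), with 6 of 7 obese mice above every lean mouse and a log2 difference of 0.39 ± 0.11 (adjusted p = 0.0264), below the fold threshold. Nfe2l2 rose by a smaller amount, from 1678 ± 190 to 2021 ± 253 (SD, n = 7 in each), 0.27 ± 0.10 with an adjusted p of 0.0881. Without KO obese replicate 7 the adjusted p of Nfe2l2 was 0.182 and it no longer passed. Under the random block Gclm was at an adjusted p of 0.114 and Nfe2l2 at 0.245. Keap1, the repressor, was nearly level, with means of 1458 in KO lean and 1454 in the obese group and a log2 difference of -0.01 ± 0.11.

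The remaining members of the KO diet comparison had intermediate or wide differences that did not pass. Txnrd1 had means of 2582 ± 373 (lean) and 3059 ± 401 (obese; SD, 7 mice each), 0.25 ± 0.11 with an adjusted p of 0.137. Srxn1, which reactivates over-oxidized peroxiredoxins, spanned 863 to 2147 (lean) and 1023 to 3048 (obese), 0.08 ± 0.25. Hmox1, Mt1 and Mt2 had log2 differences of 0.42 ± 0.37, 0.54 ± 0.51 and 0.82 ± 0.64, and of 0.11, 0.23 and 0.40 without KO obese replicate 4.

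**Figure D2:**
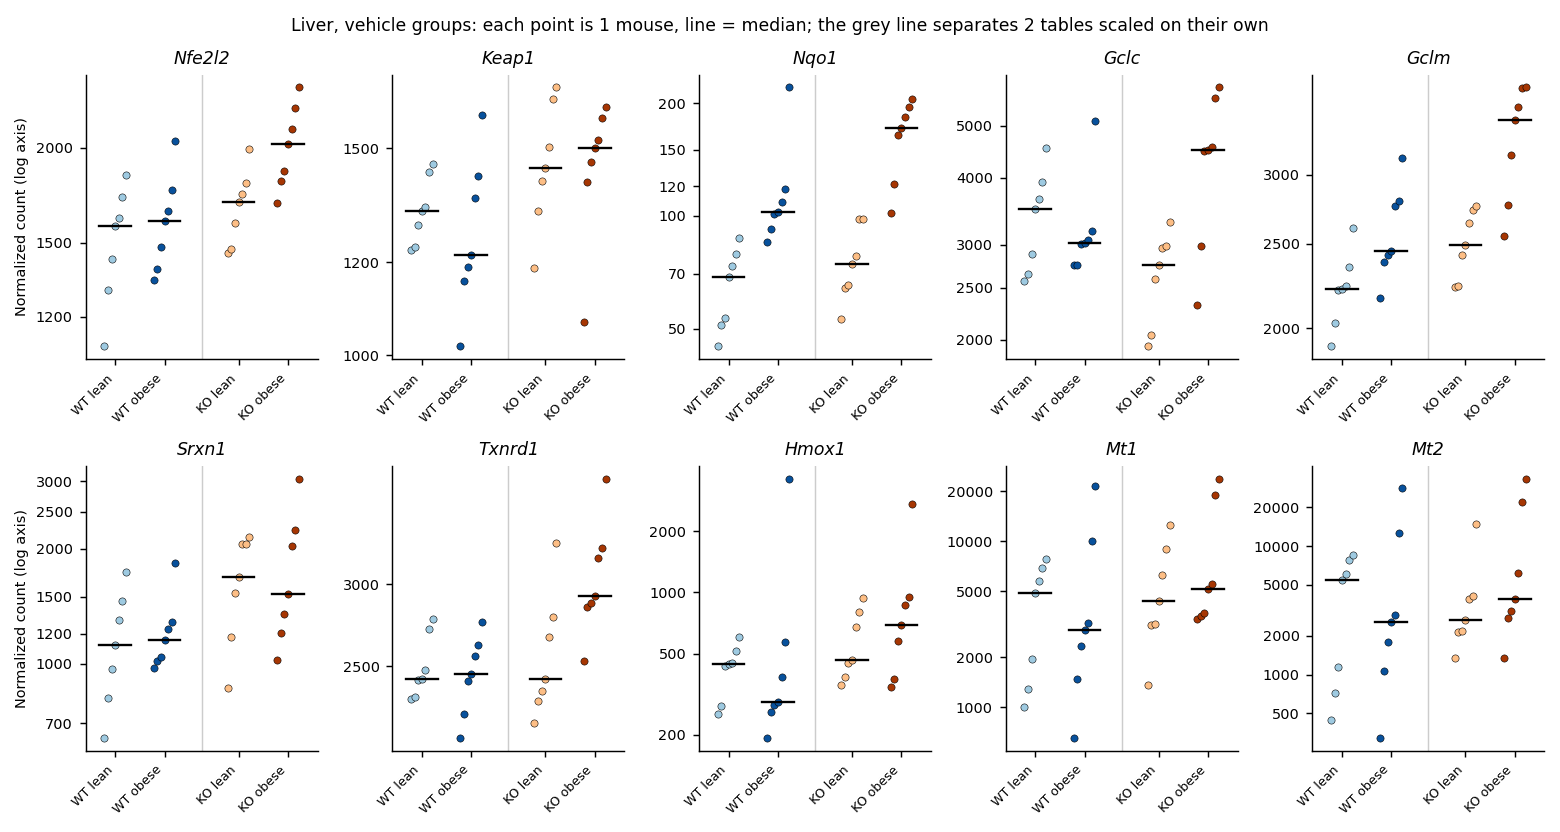
Normalized count of each member in every mouse of the 4 vehicle groups, on log axes that differ between panels, with a line at the group median; the WT pair and the KO pair come from tables scaled on their own. Nqo1 separates lean from obese mice in KO without overlap and in WT with a single mouse overlapping, whereas Mt1 and Mt2 spread widely within every group and Hmox1 in the obese groups, with single obese mice at 3613 (Hmox1), 23782 (Mt1) and 33464 (Mt2).

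The lists around the members moved in both directions in the KO diet comparison. Of the 30 other Nrf2 targets, 9 were called higher and 0 lower (list median 0.09 on the log2 scale, all genes 0.00). Aox1 rose from 517 to 1143 normalized counts (1.10, adjusted p = 0.0035) and Abcc3, an exporter of conjugated anions, from 1299 to 4337 (1.77, adjusted p = 0.0038). In the thioredoxin and peroxiredoxin list 1 of 11 was called, Prdx4 of the secretory pathway, which fell from 3407 to 1795 (-0.97, adjusted p = 0.0134). In the glutathione list 1 of 8 was called, the cystine transporter Slc7a11, at 7.88 and 25.0 normalized counts (1.17, adjusted p = 0.0906). Among the Nrf2 partners and regulators, the kinase gene Gsk3b (0.73, adjusted p = 0.0344) and the coactivator gene Crebbp (0.63, adjusted p = 0.0858) were called higher, and 0 of 11 lower. In the metal list the zinc importer genes went apart, Slc39a4 higher (0.91, adjusted p = 0.0610) and Slc39a1 lower (-0.63, adjusted p = 0.0044), with 11 tested. Of 12 haem and iron genes, Hpx (haemopexin) was called lower (-0.60, adjusted p = 0.0979).

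Genes known to respond to inflammation or to glucocorticoids were counted beside Mt1 and Mt2. Of 12 acute phase genes, 6 were called higher in KO obese than in KO lean mice (median 0.91), against 706 of 14213 genes. They were led by Orm3 (4.31, adjusted p = 0.0013) and Lcn2 (2.69, adjusted p = 0.0035). In WT obese mice 2 were called higher (median 0.44), Saa3 and Orm3, against 317 of 14012 genes. Lcn2 is in the acute phase list and in the glucocorticoid list, and is counted in each. Of 12 glucocorticoid-responsive genes, 2 were called higher and 1 lower in KO mice, Lcn2 and Zbtb16 against Angptl4, and 0 higher and 1 lower in WT mice, Pdk4 (-2.10, adjusted p = 0.0870). Neither metallothionein was called beside them.

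Whether the diet acted differently by genotype was tested as the difference between the diet effects, each formed within its own table. By limma 0 of 10 members passed an adjusted p of 0.1, and 1 of 13941 genes did (0.00717%). At an unadjusted p under 0.05 by limma were 2 of 10 members, a similar share to the 2554 of 13941 genes. These members were Gclc, with a log2 difference of 0.72 ± 0.26 (SE, KO minus WT, adjusted p = 0.156), and Txnrd1, with 0.27 ± 0.13 (adjusted p = 0.265). Without WT obese replicate 1, 964 genes and 0 members passed the adjusted p. By edgeR's quasi-likelihood test 0 members passed (1 gene) and by DESeq2 1 (930 genes), Gclc (0.76, adjusted p = 0.0730). This count changed with KO lean replicate 5: without it 1848 genes and 2 members passed, Gclc (0.78, adjusted p = 0.0655) and Txnrd1 (0.33, adjusted p = 0.0902). For Nqo1 the diet effects of 0.81 in WT and 1.09 in KO differed by 0.28 ± 0.28 (adjusted p = 0.642).

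**Figure D3:**
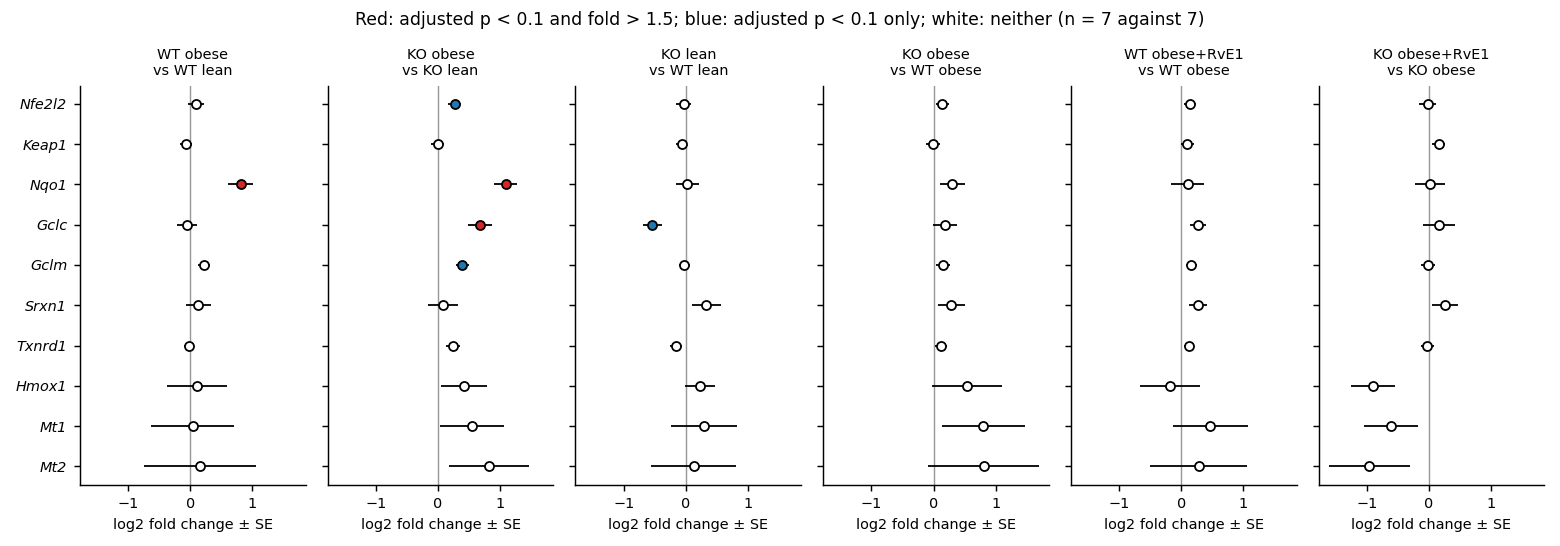
Log2 fold change of the 10 members (rows) in the 6 comparisons (panels), with bars of 1 standard error, from limma on log2(normalized count + 1) with 7 mice against 7. Red points are the calls, Nqo1 at 0.81 and 1.09 and Gclc at 0.67 on the high fat diet. Blue points are members past the adjusted p only, which were not called, among them Gclc at -0.54 in KO lean. The bars of Hmox1, Mt1 and Mt2 are the longest in every panel.

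Between the lean genotypes Gclc was the member that differed. It had 1763, 2499 and 3020 normalized counts in the lowest, median and highest KO lean mouse, against 2654, 3656 and 4734 in WT lean mice. The KO mice were the lower group, 4 of 7 below every WT mouse. The log2 difference was -0.54 ± 0.15 (SE) with a limma adjusted p of 0.0490, just under the fold threshold, so that 0 of 10 members were called against 6.65% of 13031 genes and 1 of 10 passed the adjusted p alone against 16.3%. By limma 1 member, Gclc, was at an unadjusted p under 0.05, as were 3488 of the 13031 genes. Members called at the fold threshold were also 0 by edgeR and DESeq2. Gclc was called when WT lean replicate 3 or 7 or KO lean replicate 5 was left out (-0.60, -0.61 and -0.60). Without WT lean replicate 2 or 5 it no longer passed the adjusted p (0.108 and 0.104), and over all 14 mice left out in turn the difference ran from -0.61 to -0.47. With reads scaled to equal totals it was -0.66, where the median of all genes also shifted to -0.12. Under the random block its adjusted p was 0.146. The Kupffer cell markers given above moved in the opposite direction in the same comparison.

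The other members did not pass between the lean genotypes. Nqo1 (68.0 ± 16.3 in WT, 68.9 ± 15.6 in KO; SD, n = 7), Gclm, Nfe2l2 and Keap1 differed by 0.03, -0.02, -0.03 and -0.07 on the log2 scale. Srxn1 had means of 1195 ± 396 in WT and 1494 ± 444 in KO mice (SD, n = 7; 0.33 ± 0.23), and Txnrd1 at 2597 ± 190 and 2345 ± 342 (-0.16 ± 0.10). Hmox1, Mt1 and Mt2 had differences of 0.23 ± 0.24, 0.29 ± 0.53 and 0.13 ± 0.68, with the Mt2 median at 5686 in WT and 2425 in KO mice. Among the related lists, 3 of 7 glutathione genes were called higher in KO lean, with Gpx4, the lipid peroxide reductase (0.87, adjusted p = 0.0357), and Glrx, glutaredoxin (0.60, adjusted p = 0.0417), leading. In the thioredoxin and peroxiredoxin list Prdx4 was called higher (0.82, adjusted p = 0.0417), in the haem list Hpx (0.80, adjusted p = 0.0447). Of 29 other Nrf2 targets, 2 were called higher, the carbonyl reductase gene Cbr3 (0.96, adjusted p = 0.0723) and Htatip2 (0.59, adjusted p = 0.0953), and 1 lower, the exporter gene Abcc2 (-0.66, adjusted p = 0.0460). Gsk3b (-0.61, adjusted p = 0.0806) and Crebbp (-0.69, adjusted p = 0.0797) were called lower. The KO lean mice enter this comparison and the KO diet comparison, so opposite values of a gene in the pair are not separate observations.

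On the high fat diet the genotypes were not separated for any member. By limma 0 of 10 members were called, and 2 of 14162 genes (0.0141%). At an unadjusted p under 0.05 by limma were 0 members and 319 of the genes. EdgeR called 0 members and DESeq2 0, with Hmox1 at an unadjusted p under 0.05 in DESeq2 alone, where 388 genes were. The log2 difference of Hmox1 depended on the test, with 0.54 ± 0.57 (SE) by limma, 0.02 by edgeR and 1.21 by DESeq2. By limma without WT obese replicate 1 it was 1.05. Gclc had 3015, 3343 and 5597 normalized counts in the lowest, median and highest WT obese mouse and 2227, 4325 and 5739 in KO obese mice, with overlapping groups (0.18 ± 0.20). Nqo1 was at 130.2 ± 50.5 in WT obese and 158 ± 37.2 in KO obese mice (SD, n = 7; 0.30 ± 0.21). By limma the log2 differences of the 10 members ran from -0.01 for Keap1 to 0.81 for Mt2.

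RvE1 was followed by no called member in either genotype. In WT obese mice 0 of 10 members were called by limma, against 0.0% of 13085 genes. At an unadjusted p under 0.05 by limma were 0 members and 795 of the genes. EdgeR called 1 gene and DESeq2 15, none of them a member. The glutathione ligase subunits and Srxn1 had the lowest unadjusted p values. Gclc had 3222, 3571 and 5979 normalized counts in the lowest, median and highest WT obese mouse and 3700, 4595 and 5435 after RvE1. The treated group was shifted to a higher median within the range of the vehicle group, 0.26 ± 0.13 (SE) with an adjusted p of 0.844. Gclm was at 3043 ± 382 and 3385 ± 207 (SD, n = 7; 0.16 ± 0.09) and Srxn1 at 1434 ± 343 and 1718 ± 336 (0.27 ± 0.15). Nqo1 had medians of 120 with vehicle and 121 with RvE1, with single mice at 258 and 328 (0.10 ± 0.26).

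In KO obese mice 0 of 10 members were called after RvE1, against 0.0% of 14207 genes called by limma, 0 by edgeR and 14 by DESeq2. Hmox1, haem oxygenase, was the single member at an unadjusted p under 0.05 by limma and edgeR, and by DESeq2 Mt2 was as well. Of the 14207 genes, 1179 were at that level by limma, 1222 by edgeR and 1367 by DESeq2. Hmox1 had 344, 693 and 2752 normalized counts in the lowest, median and highest vehicle mouse and 261, 418 and 554 after RvE1. The treated mice were the lower group, 2 of 7 below every vehicle mouse, and 5 of 7 within the vehicle range. The log2 difference was -0.90 ± 0.36 (SE, limma adjusted p = 0.572), and it fell in size to -0.58 without KO obese replicate 4. Mt1 and Mt2 were at -0.61 ± 0.44 and -0.96 ± 0.65, and the remaining members between -0.03 and 0.26.

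The RvE1 effects of WT and KO mice were compared as their difference, formed within each table. No member passed: 0 of 10 by limma, edgeR and DESeq2, against 0.0% of 13075 genes. At an unadjusted p under 0.05 were 0 members by each test, and 312 genes by limma. The widest differences were those of Mt2 (-1.24 ± 1.09, KO minus WT), Mt1 (-1.08 ± 0.80) and Hmox1 (-0.72 ± 0.64), with standard errors close to their size. Around the members, 0 genes of the lists of Nrf2 targets, glutathione, thioredoxin, haem, metal, glucocorticoid and acute phase genes were called after RvE1 in either genotype. The median log2 fold change of the 12 acute phase genes after RvE1 was -0.59 in KO and 0.18 in WT mice. For the 12 glucocorticoid-responsive genes it was -0.40 in KO and -0.07 in WT mice. Over all genes it was -0.01 in KO and 0.00 in WT mice. A link of these medians to Mt1 and Mt2 was not tested.

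**Figure D4:**
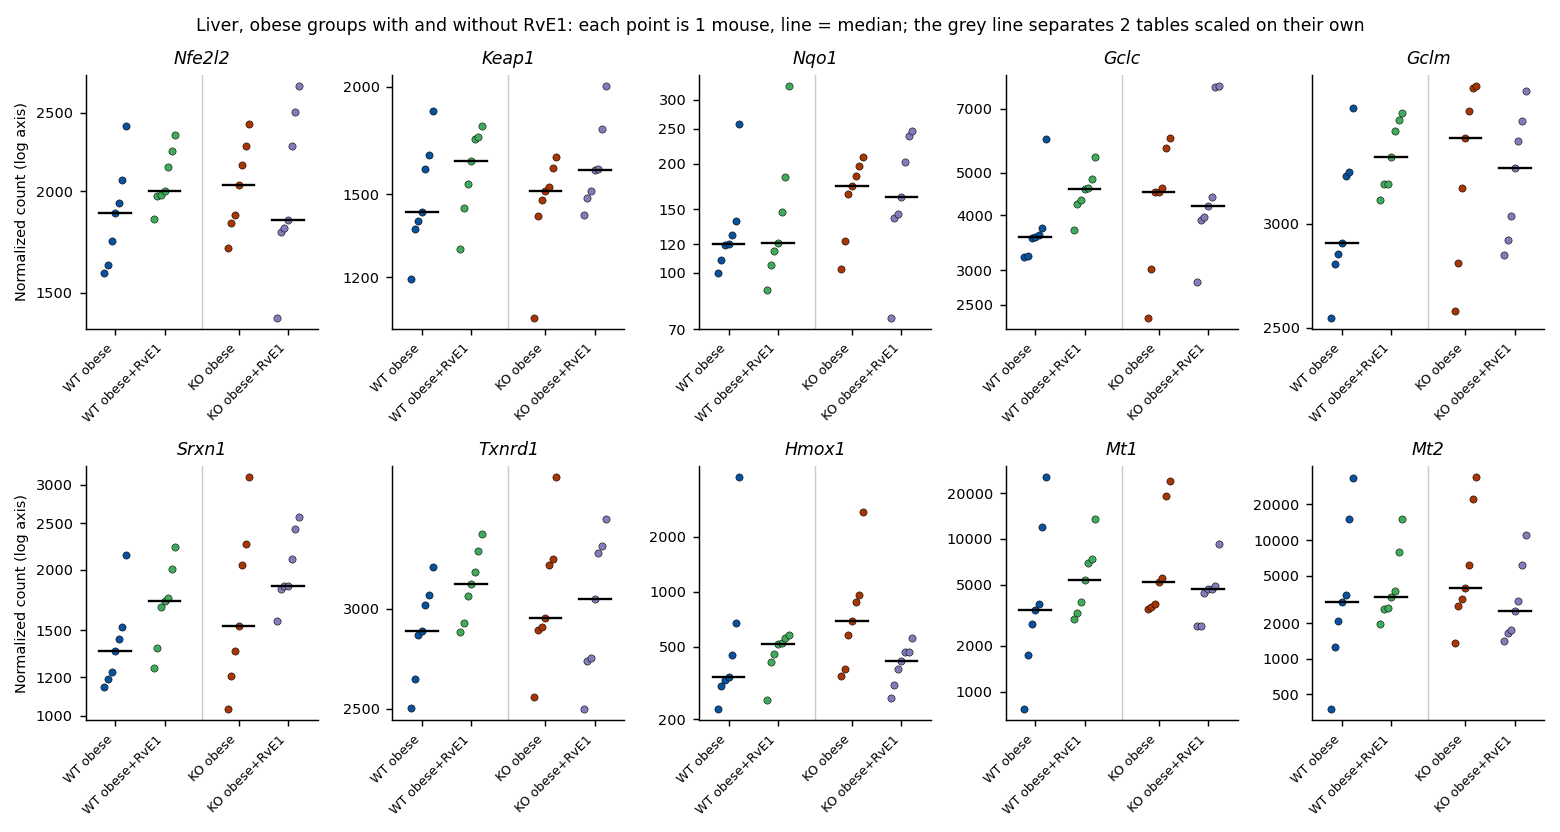
Normalized count of each member in every obese mouse with vehicle or RvE1, on log axes that differ between panels, with a line at the group median; WT and KO come from tables scaled on their own. The groups overlap for all 10 members, and the highest Hmox1, Mt1 and Mt2 values (4235, 25324 and 33729) belong to vehicle mice.

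Hmox1, Mt1 and Mt2 varied widely between mice of the same group. Their SD within groups on the log2 scale was 0.80, 1.14 and 1.53, above that of 97.4%, 99.2% and 99.8% of 11056 genes, whose median was 0.29. By contrast Txnrd1, Gclm and Keap1 were among the steady genes, with 0.15, 0.16 and 0.18. Nqo1 and Gclc had 0.47 and 0.38.

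Single mice held the high values of all 3 genes. WT obese replicate 1 had 21601 normalized counts of Mt1, 28432 of Mt2 and 3613 of Hmox1, each the highest of its group, whereas the group medians were 2914, 2559 and 290. WT obese replicate 3 was the second highest for all 3, at 10105, 12773 and 571. KO obese replicate 4 led its group with 23782, 33464 and 2731, followed by replicate 5 with 18951, 22257 and 949. In the lean groups the spread ran downwards as well: 3 of 7 WT lean mice had 442 to 1147 normalized counts of Mt2 and the other 4 had 5442 to 8465, with no mouse between. In KO lean a single mouse, replicate 5, had 14802 of Mt2 against 4066 in the next. After RvE1 the highest values were 13446 (Mt1) and 15060 (Mt2) in WT and 9215 and 10986 in KO mice, in replicate 3 and replicate 6 of their groups.

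Leaving out single mice moved the group differences of the 3 genes. Without WT obese replicate 1 the log2 difference of Hmox1 between WT obese and WT lean went from 0.11 to -0.40, and between WT obese+RvE1 and WT obese from -0.18 to 0.33. Without the same mouse the WT diet differences of Mt1 and Mt2 went from 0.04 and 0.15 to -0.41 and -0.40, and those after RvE1 from 0.47 and 0.28 to 0.91 and 0.83. Without WT obese replicate 2, which had the lowest Mt1 and Mt2 of its group, Mt1 and Mt2 after RvE1 were at 0.07 and -0.25. In KO mice the differences after RvE1 stayed negative without KO obese replicate 4, at -0.58 for Hmox1, -0.31 for Mt1 and -0.54 for Mt2. None of these was called with or without the mouse. Nqo1 did not follow the metallothioneins in a fixed direction in these mice: WT obese replicate 1 had 85.0, the lowest of its group, and KO obese replicate 4 had 122 against a group median of 171, whereas KO lean replicate 5 had 97.9, the second highest of its group.

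The link between members was measured over mice as the correlation of their deviations from the group mean, for 6 pairs over 42 mice. Mt1 and Mt2 rose and fell together, with Pearson's r = 0.94 and Spearman's rho = 0.93 (permutation p = 1e-05 for both, the smallest that 100000 permutations can give; adjusted p = 6e-05). Within the 6 groups r was 0.80 to 1.00, and without the 2 mice farthest from the median it was 0.93. Gclc and Gclm, subunits of the same enzyme, had r = 0.65 and rho = 0.64 (permutation p = 7e-05 and 6e-05, adjusted p = 0.00014 and 0.00018), with 0.38 to 0.83 within groups and 0.62 without the 2 farthest mice. Hmox1 and Mt1 had r = 0.66 and rho = 0.62 (permutation p = 7e-05 and 0.00012, adjusted p = 0.00014 and 0.00024). This held as r = 0.52 without the 2 farthest mice, WT obese replicate 1 and KO obese replicate 4, but ran from -0.0024 in WT obese+RvE1 to 0.85 in WT lean.

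The other tested pairs did not vary together to that degree. Nfe2l2 and Nqo1 had r = 0.34 and rho = 0.37 (permutation p = 0.0428 and 0.0221, adjusted p = 0.0642 and 0.0331), which fell to r = 0.30 without the 2 farthest mice and ran from -0.40 in KO lean to 0.77 in WT lean. Nqo1 with Txnrd1 had r = 0.15 and rho = 0.11 (permutation p = 0.355 and 0.522, adjusted p = 0.426 and 0.522), with 0.18 without the 2 farthest mice and -0.78 in WT lean to 0.64 in KO obese. Srxn1 with Txnrd1 had r = 0.12 and rho = 0.11 (permutation p = 0.510 and 0.512, adjusted p = 0.510 and 0.522), with 0.03 without the 2 farthest mice and -0.22 to 0.77 within groups. With reads scaled to equal totals r for Srxn1 with Txnrd1 was 0.62, for Nqo1 with Txnrd1 0.44 and for Nfe2l2 with Nqo1 0.53, so that these values depend on the scaling. Over all 45 pairs of members r was positive for 26 and negative for 19, and as a description the negative values included those of Gclc with Mt1 (-0.33) and of Srxn1 with Mt2 (-0.41).

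**Figure D5:**
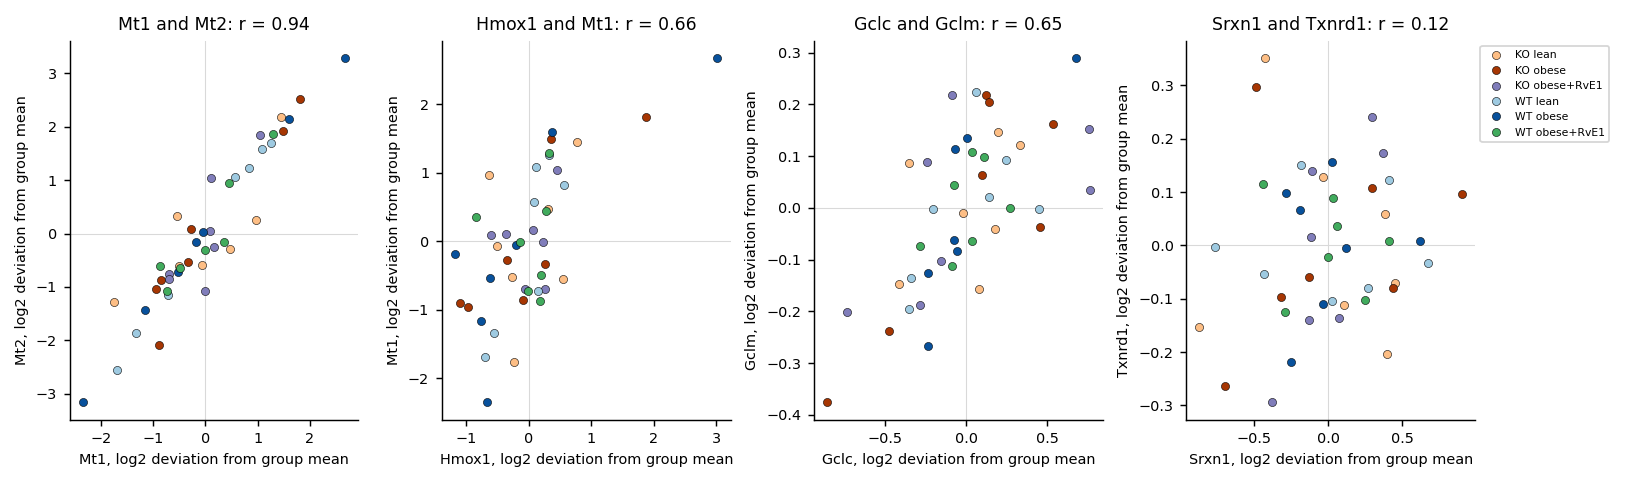
Deviation of each mouse from its group mean on the log2 scale after scaling to library size, for 4 pairs of members, with 42 mice coloured by group. The points of Mt1 and Mt2 follow a line (r = 0.94), those of Hmox1 and Mt1 (r = 0.66) and of Gclc and Gclm (r = 0.65) form a wider band, and those of Srxn1 and Txnrd1 (r = 0.12) form none.

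The genes outside the members whose deviations were most like those of a member were read off for Mt1, Srxn1 and Nqo1, among 11046 genes with a mean of at least 50 reads, over the same 42 mice and as a description only. For Mt1 they were Ctsl (cathepsin L, r = 0.75), Nedd4l (a ubiquitin ligase, 0.73), Stat3 (the transcription factor of interleukin-6 signalling, 0.73), Lepr (the leptin receptor, 0.73) and Sun2 (a protein of the nuclear envelope, 0.73). Each r was between 0.69 and 0.75 without the 2 mice farthest from the Mt1 median. For Srxn1 they were Prune (0.88), Cgref1 (0.87), Psd4 (0.85), Ly6d (0.84) and Smpd3 (a sphingomyelinase, 0.83), none of them among the Nrf2 targets listed here. For Nqo1 they were Abcb1a (a drug efflux pump, 0.75), H2-Q1 (a class I histocompatibility gene, 0.74), Slc22a29 (0.74), Slc44a3 (0.72) and Anxa2 (annexin A2, 0.72), with r between 0.66 and 0.72 without the 2 farthest mice.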

How the data were processed

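Liver RNA of 42 mice was sequenced as stranded paired-end libraries. Per the study's methods, the authors aligned reads to mm10 with Bowtie2, counted both-end mapped pairs per gene with featureCounts and normalized each pair of groups with DESeq2; which versions were run, and whether counting used strand, is not given in the sources used here. The deposited values are a count signal, reads divided by the authors' size factor, in 6 tables of 14 libraries each scaled on its own. The tables also hold the authors' fold changes and p-values, which were not used. Whole reads were recovered from 100% of values (within 0.1 reads) and used for the count tests.

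Groups were compared within a table with limma (3.58.1, R 4.3.3; eBayes with trend) on log2(normalized count + 1), after dropping genes whose mean was under 5, with Benjamini-Hochberg adjustment over all genes. Fold changes on this scale understate those of low genes. Alternatives were edgeR (4.0.16), DESeq2 (1.42.0, which replaces outlying counts in groups of this size), other scalings, filters, pseudocounts and thresholds, library weights, a length and GC correction, a random block and leaving out each mouse. Depth was 15976714 to 43805397 reads. Correlations used deviations from group means of TMM-scaled log2 values, with 2-sided permutation tests of 100000 shuffles of mice within groups. Fitting was tested on simulated data. Each library is a separate mouse.

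All 10 members were described. From each gene list the called genes with the smallest adjusted p were named, up to 2 in each direction, and for Mt1, Srxn1 and Nqo1 the 5 most alike genes. 1 marker list is not reported here. Members and lists were chosen with earlier results of these data known. Promoter sequences are from RefSeq (GRCm38.p6) and positions from GENCODE M21, which held 92.9% of the 19754 gene names.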

Additional observations from a re-analysis of the deposited data

Results flagged for a closer look

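In 10 of the 60 sets of a member in a group of 7 mice, a single mouse stood apart from the other 6. Its gap to the nearest mouse exceeded Dixon's 95% limit. About 3 such sets would be expected if values were independent and normally distributed. The counts were not transformed and some members vary together, so the 10 sets cannot be set against that 3. Values are normalized counts.

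WT obese replicate 7 stood above its group for 3 members, Nqo1 at 220 (next 118), Gclc at 5104 (next 3183) and Srxn1 at 1833 (next 1289). In the same mouse Hmox1, Mt1 and Mt2 were not the highest. WT obese replicate 1 stood apart for Hmox1, at 3613 (next 571), and KO obese replicate 4 for the same gene, at 2731 (next 949). For the metallothioneins the mice apart were KO lean replicate 5 with Mt2 at 14802 (next 4066), WT obese+RvE1 replicate 3 with Mt1 at 13446 (next 7363) and KO obese+RvE1 replicate 6 with Mt1 at 9215 (next 4918). Nqo1 was at 328 in WT obese+RvE1 replicate 2 (next 183). The single low value was that of Keap1 in KO obese replicate 6, at 1067 (next 1404).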

How the results depend on the processing

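The number of members called in the WT diet comparison, 1, was 0 with a threshold of 1.5 on the log2 scale, with equal read totals and with the random block. In the KO diet comparison, 2, it was 4 with no fold threshold, 0 at 1.5 on the log2 scale and 1 with the block. Between the lean genotypes, 0, it was 1 (Gclc) with no fold threshold, with equal read totals and with library weights, and 0 to 1 when a mouse was left out. For the diet by genotype difference, 0 members, it was 1 by DESeq2, 2 with library weights and 0 to 2 when a mouse was left out (2 without KO lean replicate 5). The counts of the other comparisons were 0 in every alternative run. The causes were not tested.

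With equal read totals r was 0.62 for Srxn1 with Txnrd1, 0.44 for Nqo1 with Txnrd1 and 0.53 for Nfe2l2 with Nqo1; the lowest r within a group was -0.22, -0.78 and -0.40 for these, and -0.0024 for Hmox1 with Mt1. Of 1620 log2 differences of members in the comparisons, 97 changed sign and 9 of them by more than their standard error: Keap1 in the KO diet comparison (0.14 with equal totals), Mt1 and Mt2 after RvE1 in WT mice (-0.21 and -0.67 by edgeR, -0.21 and -0.66 by DESeq2), Nqo1 after RvE1 with library weights (-0.17 in WT, -0.32 in KO) and Hmox1 with a mouse left out (-0.40 to 0.31 for the WT diet, -0.37 to 0.33 for RvE1 in WT; the sign turned without WT obese replicate 1). Of 760 values of the differences between genotypes 36 changed sign, none by that much.

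Equal totals moved the median of all genes to 0.14 in the KO diet and -0.12 in the lean genotype comparison, and the share of calls that were higher from 47.8% to 79.0% and from 59.4% to 26.5% (WT diet 59.6% to 68.6%). Genes called in the WT diet, KO diet and lean genotype comparisons were 242, 750 and 3 with the block, 105, 135 and 11 at 1.5 on the log2 scale, and 878, 3422 and 2123 with no fold threshold, against 532, 1476 and 866. At an adjusted p under 0.05 they were 348 (WT diet) and 480 (lean genotypes), and for the lean genotypes 1536 with library weights, 566 with the length and GC correction and 388 to 1480 without a mouse. The diet by genotype count of 1 gene was 2564 with weights. No paired analysis was possible because replicate numbers were given in accession order. The number in the mouse identifier is of unstated meaning and was used only as the random block. Groups held between 2 (WT obese+RvE1) and 4 (WT lean) such numbers. Only number 23 was shared between groups, KO obese and KO obese+RvE1. Whatever the number stands for therefore cannot be told apart from diet, genotype or RvE1 by these mice. Reads limit Nqo1 most, at 42 to 378 a library.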
